A study of Mus musculus with 6 samples.

Results

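Kremen1, Sema5b, Epha4, Id4 and Lypd1 are 5 of the 24841 genes in a table of nuclear RNA from mouse striatum, and they were chosen by name as genes that differ between the striosome and matrix compartments of this tissue. Their values were followed in nuclei whose summed value of Rgs9 and Pde10a was at least 8, which selected 21173 of 48834 nuclei (43.4%), against the other 27661 nuclei. Rgs9 and Pde10a, a regulator of G-protein signalling and a cyclic nucleotide phosphodiesterase, are both abundant in medium spiny neurons, and these are called gated nuclei here. Gated nuclei were then split by whether a value was present for Drd1 alone (5962 nuclei, D1-only), Drd2 alone (6797, D2-only), both receptor genes (1213) or neither (7201).

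Medium spiny neurons are the GABAergic projection neurons of the striatum. Those carrying the dopamine receptor Drd1 form the direct pathway, and those carrying Drd2 form the indirect pathway. Both kinds occur in 2 intermingled compartments: the striosomes (patches), classically recognised by dense mu-opioid receptor, and the surrounding matrix, recognised by calbindin. Kremen1, a transmembrane receptor for the Wnt antagonists of the Dickkopf family, and Sema5b, a transmembrane semaphorin involved in axon guidance, are known as striosome markers. Epha4, a receptor tyrosine kinase for ephrins, and Id4, a helix-loop-helix protein that lacks a DNA-binding domain and holds back basic helix-loop-helix factors, are known as matrix markers. Lypd1 encodes a small membrane-anchored protein of the Ly6 family that modulates nicotinic acetylcholine receptors, and no compartment was assigned to it here.

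The study compared wild-type mice with Celsr3 heterozygous mice, called Celsr3_het, in 3 single-nucleus libraries each, made with the 10x 3' v3.1 chemistry from frozen dissected striatum and sequenced together on a single lane. Celsr3 is an atypical cadherin with a known role in axon tract formation. The labels name the libraries as biological replicates and give neither sex, age, strain, the way the allele was made, nor whether animals were pooled. A genotype p-value therefore measures the spread between these libraries. Where both sides of a comparison came from the same libraries, the p-value measures the spread of the differences within them. The libraries held 7735, 7890 and 8081 wild-type nuclei and 7890, 8363 and 8875 Celsr3_het nuclei.

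The deposited values have the form of depth-corrected values: totals per nucleus lay between 4523 and 10638 with a coefficient of variation of 10.7%, while the genes detected per nucleus ran from 1284 to 5263. A level below is the mean of these values over the nuclei of a library, and a value of 0 in a nucleus does not show that the gene was silent there. Wild-type library 1 had the fewest genes per nucleus, a median of 2456 against 2843 to 3011 in the other libraries. A total of 274 barcodes were found in more than 1 library and touched 549 nuclei. Celsr3 itself was compared with the genotype labels: gated wild-type nuclei held 0.112, 0.148 and 0.148 and gated Celsr3_het nuclei 0.0712, 0.0864 and 0.0898, with no overlap. Genotype groups did not overlap for 17.4% of 13942 genes in gated nuclei. Celsr3 was not among the 2 genes called there between genotypes. In the other nuclei the genotypes overlapped, at 0.0546, 0.0419 and 0.0781 for wild type and 0.0529, 0.0557 and 0.0498 for Celsr3_het. They overlapped also in gated nuclei with neither receptor, with 0.0836 in wild-type library 1 and 0.0840 in Celsr3_het library 3. The 8 listed medium spiny neuron markers other than Rgs9 and Pde10a, which set the gate, summed to 42.5 ± 2.07 per nucleus in gated and 11.5 ± 0.815 in other nuclei (SD, n = 6), so they were not at 0 outside the gate. By clustering, 32.9% of gated nuclei were D2 MSN-like, 20.9% D1 MSN-like, 18.7% MSN-like without a receptor name, 3.43% Eccentric MSN-like and 4.61% glutamatergic neuron-like, with 8.06% in clusters left unnamed.

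All 5 genes are protein-coding in the GENCODE vM21 annotation of GRCm38. Kremen1 lies at chr11:5191552-5261558 on the minus strand, Sema5b at chr16:35541145-35664732 on the plus strand, Epha4 at chr1:77367185-77515088 on the minus strand, Id4 at chr13:48261228-48266026 on the plus strand and Lypd1 at chr1:125867622-125913101 on the minus strand. Id4 overlaps A330033J07Rik and Gm49291 on the opposite strand, over 1396 and 1364 bases, and Lypd1 overlaps Gpr39 on the opposite strand over 6241 bases. Use of strand in the counting is not given in the sources used here, so reads from the overlaps cannot be told apart. The levels listed for these partners in gated nuclei were low: A330033J07Rik was at 0.0209 ± 0.00329, Gm49291 at 0.00166 and Gpr39 at 0.0281 ± 0.00913 (SD, n = 6).

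Of the 5 genes, 4 were higher in gated than in other nuclei, and Id4 was the exception. This comparison called 79.7% of 15029 genes tested (45.2% higher and 34.5% lower in gated nuclei), so a call here is close to what most genes gave. The split depends on the scaling: 6800 genes were higher and 5180 lower, which became 5903 and 5971 with size factors, so that the share of calls that were higher went from 56.8% to 49.7%. Calls throughout are at an adjusted p under 0.05 by limma on log2(mean + 0.01), with libraries as blocks where both sides come from the same libraries. The 2 sides differ in cell types: oligodendrocyte-like nuclei made up 25.9% and astrocyte-like nuclei 18.2% of the other nuclei.

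Kremen1 was at 0.143, 0.180 and 0.165 in gated wild-type nuclei and at 0.141, 0.164 and 0.219 in gated Celsr3_het nuclei. In other nuclei it was at 0.0803, 0.112 and 0.0987, then 0.108, 0.0833 and 0.0914. No other-nuclei value reached the lowest gated value, and the difference was 0.75 ± 0.09 on the log2(mean + 0.01) scale (SE; adjusted p = 5.7e-05, higher in 6 of 6 libraries). With a pseudocount of 0.1 the difference was 0.45. A value of at least 1 was present in 14.0% ± 2.16 of gated nuclei (SD, n = 6) and 7.81% ± 1.07 of other nuclei.

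Sema5b was at 0.382, 0.571 and 0.518 in gated wild-type nuclei and at 0.435, 0.444 and 0.498 in gated Celsr3_het nuclei. In other nuclei the 6 values ran from 0.189 to 0.274, below every gated value. The difference was 0.99 ± 0.05 on the same scale (SE; adjusted p = 1.2e-07, 6 of 6 libraries). Sema5b had a value in 23.4% of gated and 12.5% of other nuclei.

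Epha4 was at 2.18, 2.59 and 2.24 in gated wild-type nuclei and at 1.91, 2.08 and 2.30 in gated Celsr3_het nuclei. In other nuclei it lay between 0.887 and 1.13, so the sides were apart in each library. The difference was 1.08 ± 0.06 (SE, log2; adjusted p = 3.6e-07, 6 of 6 libraries), and Epha4 was present in 80.5% of gated and 47.2% of other nuclei.

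Id4 was at 0.406, 0.272 and 0.227 in gated wild-type nuclei and at 0.297, 0.332 and 0.396 in gated Celsr3_het nuclei. Its values in other nuclei were 0.326, 0.30 and 0.277, then 0.272, 0.306 and 0.368, inside the gated range. The difference was 0.04 ± 0.07 (SE, log2; adjusted p = 0.634, higher in 4 of 6 libraries) and changed sign with size-factor scaling, where it was -0.046. Id4 is also known in glia, and it was at 0.749 ± 0.0939 in astrocyte-like nuclei (SD, n = 6).

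Lypd1 was at 0.270, 0.219 and 0.247 in gated wild-type nuclei and at 0.183, 0.226 and 0.242 in gated Celsr3_het nuclei. Other nuclei held 0.178, 0.149 and 0.208, then 0.139, 0.223 and 0.165, which overlapped the gated range although gated nuclei were higher within all 6 libraries. The difference was 0.38 ± 0.08 (SE, log2; adjusted p = 0.00134). Just under the gate (summed value 6 to 7, 3919 nuclei) and just over it (8 to 9, 2274 nuclei) Lypd1 was at 0.206 and 0.222, Epha4 at 1.16 and 1.35, Sema5b at 0.287 and 0.327, Kremen1 at 0.0917 and 0.0842 and Id4 at 0.282 and 0.262.

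**Figure D1:**
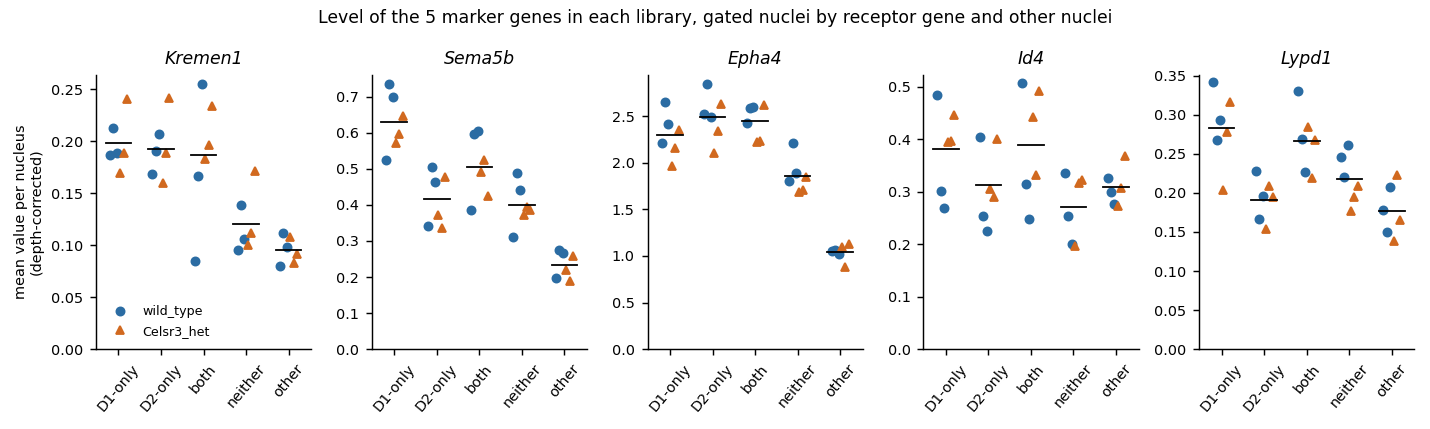
Mean deposited value per nucleus (vertical axis) of each gene in D1-only, D2-only, both-receptor, neither-receptor and other nuclei (horizontal axis); each point is 1 library, circles wild type and triangles Celsr3_het, and the bar is the mean over 6 libraries. Sema5b and Lypd1 sit higher in D1-only than in D2-only nuclei in all 6 libraries, and Epha4 sits lower.

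The other compartment genes were called across the gate about as often as genes at large. Of 9 further striosome-associated genes, 5 were higher in gated nuclei and 2 lower, beside 45.2% and 34.5% of all genes tested, with a median of 0.88 on the log2 scale beside 0.0833 over all genes tested. Pdyn, which encodes the dynorphin precursor, was 1.49 higher, Tac1, which encodes the substance P precursor, 0.88 higher, and Bach2, a transcription factor gene, was lower at -0.32. Oprm1, the mu-opioid receptor gene, differed by -0.03. Of 6 further matrix genes, 5 were higher, among them Calb1 (calbindin) by 1.34, Mfge8 was lower at -1.12, and the median was 1.14. The call of Sv2b (0.60), 1 of these 5, was lost with the gate at 12 and with gated nuclei of the MSN-like, D1, D2 and Eccentric MSN-like clusters only (adjusted p = 0.0569 and 0.0689).

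Of 17 tested partner genes of the members, 8 were higher in gated nuclei and 7 lower, close to the same background of 45.2% and 34.5%. The Dickkopf gene Dkk2 (1.88), the ephrin gene Efnb2 (1.48), Ngef, a guanine nucleotide exchange factor that acts downstream of Epha4 (1.66), and the nicotinic subunit gene Chrna7 (1.96) were higher. The Wnt co-receptor gene Lrp5 (-1.25), the semaphorin receptor gene Plxna1 (-0.95), and the basic helix-loop-helix genes Tcf4 (-1.87) and Tcf12 (-1.03) were lower.

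Across cell classes each gene had its own order, given here as a description because the clusters were built from 2000 variable genes of this same table. Whether the 5 genes were among them is not given here. The MSN-like class without a receptor name is not a class apart from D1: it held 2267 D1-only and 125 D2-only nuclei, against 2757 and 106 in the D1 MSN-like class. It pools the unlike clusters 4 and 12, so the order among the medium spiny neuron classes follows how clusters were named and is not an order of receptor types. Kremen1 was at 0.313 ± 0.0775 (SD, n = 6) in MSN-like clusters without a receptor name, 0.190 ± 0.0338 in D2 MSN-like nuclei and 0.116 ± 0.0176 in D1 MSN-like nuclei, and at 0.0329 ± 0.0145 in GABAergic interneuron-like nuclei, where 3.00% of nuclei had a value at a median of 3397 genes per nucleus. None of the 18 steps between neighbouring classes in its order exceeded the summed SD of the pair. The Kremen1 order therefore separates distant classes but no neighbours.

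Sema5b was at 2.70 ± 0.425 (SD, n = 6) in Eccentric MSN-like nuclei, a small Drd1-expressing class, and at 1.28 ± 0.245 in committed oligodendrocyte precursor-like and 1.12 ± 0.258 in oligodendrocyte precursor-like nuclei. It was at 0.633 ± 0.167 in the MSN-like class, a mean over cluster 4 at 0.168 ± 0.0688 and cluster 12 at 1.73 ± 0.408, with 0.404 ± 0.0779 for D2 MSN-like and 0.200 ± 0.0353 for D1 MSN-like nuclei. Mature oligodendrocyte-like nuclei were last in the order at 0.0225 ± 0.00444, with a value in 1.64% of nuclei at a median of 1847 genes per nucleus. Neighbours were further apart than their summed SD at 3 of 18 steps.

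Epha4 led in D2 MSN-like nuclei at 2.55 ± 0.231 (SD, n = 6), with GABAergic interneuron-like (2.53 ± 0.533), D1 MSN-like (2.44 ± 0.227) and neuroblast-like (2.43 ± 0.124) nuclei not apart from it. Eccentric MSN-like nuclei were at 1.32 ± 0.357, and astrocyte-like nuclei at 0.669 ± 0.0412, where 33.4% of nuclei still had a value at a median of 2029 genes. At 2 of 18 steps neighbours were apart. Free RNA was not estimated in these libraries, so a low level or share in a class does not show that its cells expressed the gene.

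Id4 was at 1.83 ± 0.669 in ependymal-like nuclei (SD over the 3 libraries that held enough of them), 0.749 ± 0.0939 in astrocyte-like (SD, n = 6), 0.464 ± 0.0576 in nuclei of the D1 MSN-like class, 0.323 ± 0.0732 in those of the D2 class and 0.143 ± 0.0343 in Eccentric MSN-like nuclei. Cholinergic interneuron-like nuclei were last at 0.0694 ± 0.0205, with a value in 6.94% of nuclei at a median of 3814 genes, and 3 of 18 steps exceeded the summed SD. Lypd1 was at 1.02 ± 0.245 in Eccentric MSN-like nuclei and at 0.267 ± 0.0409 in MSN-like and 0.249 ± 0.0323 in D1 MSN-like nuclei, which are next and not apart from each other. For Lypd1 only 1 of 18 steps exceeded the summed SD, and astrocyte-like nuclei had a value in 6.46% of nuclei.

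Within medium spiny neurons, 2 clusters combined high Kremen1 and Sema5b with low Epha4. Cluster 12 (1165 nuclei) had Kremen1 at 0.609 ± 0.133, Sema5b at 1.73 ± 0.408 and Epha4 at 0.699 ± 0.106 (SD, n = 6), and cluster 11 (1356 nuclei) had them at 0.480 ± 0.0839, 1.40 ± 0.347 and 1.23 ± 0.0589. The D1 MSN-like cluster 2 (4572 nuclei) had Kremen1 at 0.116, Sema5b at 0.200 and Epha4 at 2.44, and the D2 MSN-like cluster 0 (5052 nuclei) had 0.123, 0.148 and 2.95. Cluster 4 (2791 nuclei), the larger cluster of the MSN-like class, was near these with 0.185 ± 0.0453, 0.168 ± 0.0688 and 2.94 ± 0.335. The Eccentric MSN-like cluster 13 (1152 nuclei) joined the highest Sema5b (2.70) and Lypd1 (1.02) of the 7 clusters compared to a Kremen1 of 0.0602. Sema5b and Kremen1 were therefore high together in clusters 11 and 12 and apart in cluster 13.

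**Figure D2:**
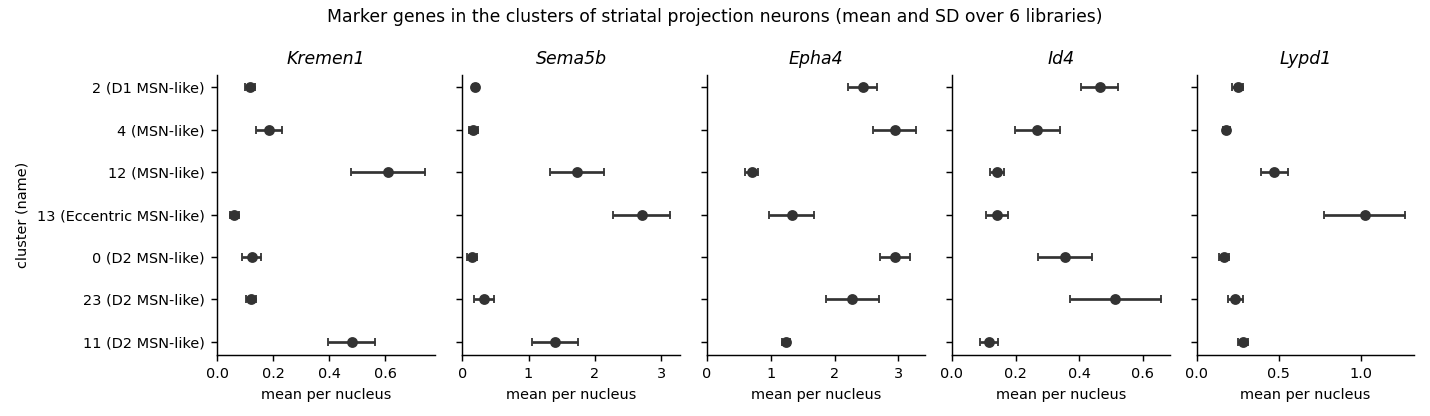
Mean deposited value per nucleus (horizontal axis, error bars SD over 6 libraries) of each gene in 7 clusters of medium spiny neuron-like nuclei (vertical axis). Clusters 12 and 11 show Kremen1 at 0.609 and 0.480 with Epha4 at 0.699 and 1.23, and cluster 13 shows Sema5b at 2.70 with Kremen1 at 0.0602.

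D1-only nuclei differed from D2-only nuclei in 4 of the 5 genes: Sema5b, Lypd1 and Id4 were higher and Epha4 was lower, while Kremen1 was near equal. The background was 33.9% of 13035 genes called, 27.1% higher and 6.77% lower in D1-only nuclei. That split depends on scaling: 80.0% of calls were higher in D1-only nuclei in the deposited values and 42.6% with size-factor scaling, which moved the median of all genes from 0.0869 to near 0. The D1-only nuclei also held 342 Eccentric MSN-like nuclei (5.74%) against 33 (0.486%) of the D2-only nuclei.

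Sema5b was at 0.525, 0.734 and 0.699 in D1-only wild-type nuclei and at 0.572, 0.598 and 0.648 in Celsr3_het nuclei. In D2-only nuclei it was at 0.342, 0.504 and 0.462, then 0.372, 0.336 and 0.477, below every D1-only value. The difference was 0.60 ± 0.04 (SE, log2; adjusted p = 1.5e-09, 6 of 6 libraries). Without the Eccentric MSN-like cluster it was 0.02 ± 0.05 (adjusted p = 0.725), so the D1-only excess of Sema5b was not present among the remaining nuclei.

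Lypd1 was at 0.342, 0.268 and 0.294 in D1-only wild-type nuclei and at 0.204, 0.278 and 0.317 in Celsr3_het nuclei. D2-only values were 0.228, 0.167 and 0.196, then 0.153, 0.208 and 0.194. Within each library D1-only nuclei were higher, although the lowest D1-only value, in Celsr3_het library 1, lay inside the D2-only range. The difference was 0.54 ± 0.05 (SE, log2; adjusted p = 1.1e-07, 6 of 6) and 0.45 ± 0.06 without the Eccentric MSN-like cluster (adjusted p = 7.5e-06).

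Id4 was at 0.484, 0.301 and 0.269 in D1-only wild-type nuclei and at 0.395, 0.396 and 0.445 in Celsr3_het nuclei, against 0.405, 0.253 and 0.225 and then 0.305, 0.290 and 0.399 in D2-only nuclei. The libraries spread more than the 2 receptor groups, but D1-only was higher within every library. The difference was 0.28 ± 0.04 (SE, log2; adjusted p = 5.8e-05) and 0.33 without the Eccentric MSN-like cluster. Over all settings it ran from 0.188 to 0.332 (limma adjusted p at most 0.0024).

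Epha4 was the member that was lower in D1-only nuclei. It was at 2.22, 2.66 and 2.41 in D1-only wild-type nuclei and at 1.97, 2.16 and 2.35 in Celsr3_het nuclei. D2-only nuclei held 2.53, 2.85 and 2.49, then 2.10, 2.35 and 2.64, higher in every library with overlapping ranges. The difference was small, -0.12 ± 0.02 (SE, log2; adjusted p = 0.00088), and with size-factor scaling it was -0.21. Over all settings it ran from -0.215 to -0.099 (limma adjusted p at most 0.0066).

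Kremen1 was at 0.187, 0.212 and 0.189 in D1-only wild-type nuclei and at 0.169, 0.189 and 0.241 in Celsr3_het nuclei. D2-only nuclei held 0.168, 0.190 and 0.207, then 0.16, 0.189 and 0.242, so the 2 sets overlapped almost fully. The difference was 0.04 ± 0.05 (SE, log2; adjusted p = 0.579, higher in 3 of 6 libraries). It turned to -0.051 with size-factor scaling.

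Of 9 further striosome-associated genes, 4 were higher in D1-only nuclei and 3 lower, beside 27.1% and 6.77% of all genes tested. Pdyn (2.83), Tac1 (1.96) and Asic4, an acid-sensing ion channel family gene (2.10), were higher. Pdyn and Tac1 are also among the D1 medium spiny neuron markers used to name clusters, so their excess cannot be read as a compartment result. The zinc-finger gene Tshz1 was higher too (0.58), but at 0.08 (adjusted p = 0.296) without the Eccentric MSN-like cluster. The orphan nuclear receptor gene Nr4a1 (-0.24), Bach2 (-0.19) and Nnat (-0.17) were lower, and Oprm1 differed by 0.14 (adjusted p = 0.0548). The Nr4a1 call was lost in 6 alternatives (adjusted p up to 0.143), among them leaving out wild-type library 1 or 3 or Celsr3_het library 1 or 2, and the Bach2 call without the filter on low values (0.0538). Of 6 matrix genes 2 were higher, Sv2b (0.33) and Sgk1 (0.21), and 2 lower, Calb1 (-0.14) and Rasgrp2 (-0.28). Calb1 was at -0.071 (adjusted p = 0.156) without the Eccentric MSN-like cluster.

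Of 13 partner genes 2 were higher in D1-only nuclei, Dkk2 (0.71) and Efnb2 (0.12), and 2 lower, Ngef (-0.21) and Chrna4 (-0.36), close to the background of 33.9% called. Efnb2 was at 0.021 (adjusted p = 0.719) with size-factor scaling, and its call was also lost at the gate of 5 and without Celsr3_het library 1 or 2. The Chrna4 call was lost without the filter and without wild-type library 1 or Celsr3_het library 1 or 2 (adjusted p up to 0.102).

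Nuclei with both receptor genes were fewer, 130 to 330 per library. Kremen1 there ranged from 0.0846 to 0.255, Sema5b from 0.385 to 0.606, Epha4 from 2.23 to 2.62, Id4 from 0.248 to 0.508 and Lypd1 from 0.220 to 0.331. Each of these ranges overlapped the D1-only range. No doublet caller was run, so the number of doublets among them was not tested.

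Nuclei with neither receptor gene, 969 to 1444 per library, carried lower levels of several members. Kremen1 ranged from 0.0949 to 0.171, Sema5b from 0.311 to 0.488 and Epha4 from 1.68 to 2.21, and Epha4 was lower there than in D1-only and in D2-only nuclei of each library. Id4 ranged from 0.197 to 0.335 and Lypd1 from 0.177 to 0.261. The 7 oligodendrocyte markers summed to 19.2 ± 6.14 in these nuclei against 6.64 ± 1.76 in D1-only and 6.73 ± 1.77 in D2-only nuclei (SD, n = 6), with none of the markers at 0. Unnamed clusters held 17.6% of them and glutamatergic neuron-like clusters 10.7%, against 3.40% and 2.10% of D1-only and 3.03% and 1.07% of D2-only nuclei. Their median genes per nucleus ran from 2614 to 3152 over libraries, against 3341.5 to 3525 in D1-only and 3121 to 3385.5 in D2-only nuclei. The part of cell mix and depth in the lower levels was not tested.

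Within a receptor class, Kremen1 with Sema5b, Epha4 with Id4 and Sema5b with Lypd1 had co-detection odds ratios above 1 in every library. The odds of finding a value for one gene in nuclei with a value for the other were computed within strata of genes per nucleus, in each library, and are a description without a test. Kremen1 and Sema5b occurred together with a median odds ratio of 2.65 in D1-only nuclei (1.44 to 3.72 over 6 libraries) and 2.93 in D2-only nuclei (2.05 to 3.87), above 1 in 6 of 6 libraries of both. Epha4 and Id4 did so at 1.87 (1.39 to 2.55) and 1.88 (1.37 to 2.26), also in 6 of 6 libraries of both.

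Between Kremen1 or Sema5b and Epha4 or Id4 the median odds ratios were below 1. Sema5b with Epha4 gave 0.295 in D1-only and 0.318 in D2-only nuclei, Kremen1 with Epha4 0.434 and 0.538, and Sema5b with Id4 0.516 and 0.688, below 1 in each library. Kremen1 with Id4 gave 0.686 and 0.747, with 1 D2-only library above 1. Lypd1 occurred with Sema5b at 1.85 and 1.49, above 1 in 6 of 6 libraries of both classes. With Kremen1 it did so at 1.46 and 1.28, above 1 in 5 of 6 libraries of each class. With Epha4 Lypd1 gave 0.666 and 0.722, with 1 D2-only library above 1, and with Id4 it had no common direction at 0.918 and 1.11. Without the Eccentric MSN-like cluster the Kremen1 and Sema5b ratio in D1-only nuclei was 3.14.

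**Figure D3:**
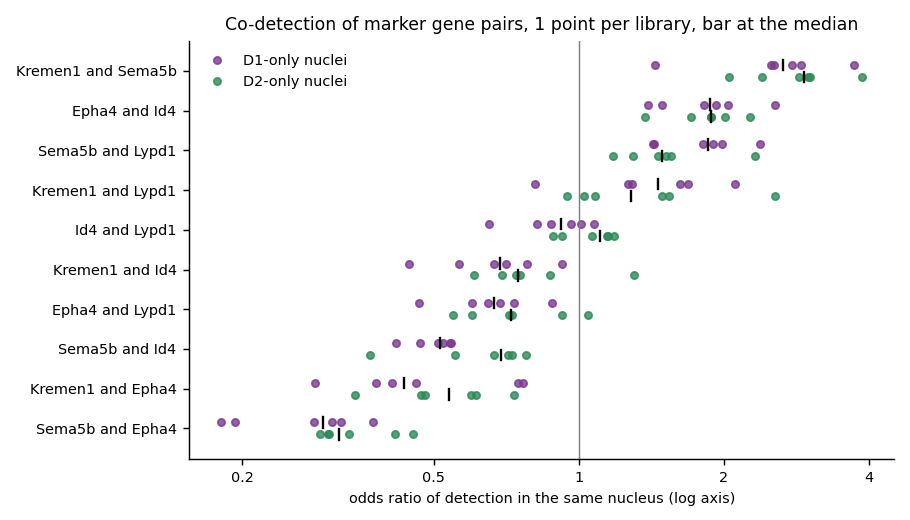
Odds ratio of co-detection on a log axis for each of the 10 gene pairs, computed within strata of genes per nucleus; each point is 1 library, purple D1-only and green D2-only nuclei, and bars are medians over 6 libraries. Kremen1 with Sema5b, Epha4 with Id4 and Sema5b with Lypd1 lie above 1 in every library, and Sema5b with Epha4 lies near 0.3.

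Nuclei with a value for both Kremen1 and Sema5b, called double-positive here, were compared with nuclei that had neither, in the same libraries and receptor class, with the latter weighted to the same distribution of genes per nucleus. There were 427 double-positive of 5962 D1-only nuclei and 482 of 6797 D2-only nuclei. The double-negative nuclei numbered 3810 and 4518. Because Kremen1 and Sema5b made the selection, only the other 3 genes are results of it. Most double-positive nuclei sat on the limit of the definition: 351 of 427 in D1-only and 432 of 482 in D2-only nuclei had a value of exactly 1 for at least 1 of the genes, and 148 and 206 for both. Double-positive nuclei lay mainly in cluster 12 for D1-only (64.2%, against 2.55% of double-negative nuclei) and cluster 11 for D2-only (69.3%, against 6.0%).

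In double-positive nuclei Epha4 and Id4 were lower and Lypd1 was higher, in both receptor classes. The background was 11.2% of 11592 genes called in D1-only nuclei (4.55% higher, 6.7% lower) and 12.3% of 11799 in D2-only nuclei (4.99% higher, 7.27% lower). All 3 members were called in both, although Id4 passed the filter on low values only through the double-negative nuclei.

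Epha4 in D1-only double-positive nuclei was at 0.816, 1.59 and 1.43 for wild type and at 1.21, 1.02 and 1.02 for Celsr3_het. In the double-negative nuclei it was at 2.49, 3.00 and 2.71, then 2.25, 2.39 and 2.63, without overlap. The difference was -1.15 ± 0.08 (SE, log2; adjusted p = 8.4e-10, 0 of 6 libraries higher). In D2-only nuclei the double-positive values ran from 1.20 to 1.82 and the double-negative from 2.37 to 3.25, a difference of -0.82 ± 0.07 (SE; adjusted p = 1.9e-09).

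Id4 in D1-only double-positive nuclei was at 0.245, 0.16 and 0.185 for wild type and 0.104, 0.127 and 0.25 for Celsr3_het. The double-negative values were 0.596, 0.355 and 0.330, then 0.426, 0.423 and 0.460, all above them. The difference was -1.27 ± 0.15 (SE, log2; adjusted p = 2.1e-06). In D2-only nuclei it was -0.96 ± 0.16 (SE; adjusted p = 0.00013), with 0.0909 to 0.247 in double-positive and 0.263 to 0.447 in double-negative nuclei.

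Lypd1 in D1-only double-positive nuclei was at 0.612, 0.547 and 0.585 for wild type and 0.146, 0.698 and 0.479 for Celsr3_het, against 0.30, 0.196 and 0.233 and then 0.157, 0.204 and 0.280. It was higher in 5 of 6 libraries, and Celsr3_het library 1, with 48 double-positive nuclei, was the one below. The difference was 1.02 ± 0.17 (SE, log2; adjusted p = 0.00017). In D2-only nuclei it was 0.72 ± 0.15 (SE; adjusted p = 0.0012, 6 of 6 libraries), and without the Eccentric MSN-like cluster the D1-only difference was 0.97.

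Epha4 and Id4 moved in the same direction in this comparison, and the 250 bases before the start of each are shown as RefSeq gives them on GRCm38.p6, read along the gene's strand. Epha4 is at chr1:77515089-77515338 on the minus strand and Id4 at chr13:48260866-48261115 on the plus strand, and RefSeq windows were matched for 4 of the 5 genes. Capitals mark CCAAT on either strand, where ATTGG is its reverse, a motif chosen after the letters were read.
Epha4: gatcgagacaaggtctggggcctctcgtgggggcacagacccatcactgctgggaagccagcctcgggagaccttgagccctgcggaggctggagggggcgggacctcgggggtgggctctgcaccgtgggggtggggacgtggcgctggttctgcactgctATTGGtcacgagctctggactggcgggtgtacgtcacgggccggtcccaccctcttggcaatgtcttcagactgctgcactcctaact
Id4: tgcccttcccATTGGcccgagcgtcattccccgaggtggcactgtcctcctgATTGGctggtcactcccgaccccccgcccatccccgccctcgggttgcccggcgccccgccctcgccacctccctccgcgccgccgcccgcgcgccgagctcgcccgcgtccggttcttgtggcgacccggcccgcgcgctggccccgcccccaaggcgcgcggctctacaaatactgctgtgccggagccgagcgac
The Epha4 window holds 1 match, 88 bases before the start, and the Id4 window 2, 240 and 198 bases before. CCAAT on either strand is present in 33.8% of 32851 windows of this length. The E-box CANNTG, the motif of basic helix-loop-helix factors and the same on both strands, is present in 66.2% of windows and in neither of these. GC content was 66.0% for Epha4 with 14 CG steps and 75.6% for Id4 with 35, against medians of 52.4% and 6 over all windows. A match describes these letters only.

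Most of the other striosome-associated genes were higher in double-positive nuclei. The striosome and matrix lists were chosen with earlier results of these data known, so the counts below are not independent support. In D1-only nuclei 9 of 9 were higher, beside 4.55% of all genes tested, with a median of 0.656 beside -0.0518 over all genes. In D2-only nuclei 6 of 9 were higher, beside 4.99%, and 0 lower, with a median of 0.639 beside -0.0521. Bach2 (1.96 and 1.48 on the log2 scale in D1-only and D2-only), Tshz1 (1.51 and 1.24), Tac1 (1.02 and 0.73) and Asic4 (0.55 and 1.87) were higher in both. Of 6 matrix genes, 4 were lower in both, beside 6.7% and 7.27% of all genes, with medians of -0.713 and -0.682: the kinase gene Sgk1 (-1.55 and -1.59), the synaptic vesicle gene Sv2b (-1.16 and -1.43), Calb1 (-1.01 and -0.84) and Rasgrp2 (-0.42 and -0.52). The Nnat call (0.36 and 0.32) was lost in D1-only nuclei without wild-type library 3 or Celsr3_het library 2 and in D2-only nuclei without Celsr3_het library 2 (adjusted p up to 0.078), and the D2-only call of Rasgrp2 without the filter (0.0562).

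Oprm1 separated the receptor classes. In D1-only nuclei it was at 0.776, 0.915 and 1.20 in wild-type and 0.458, 1.37 and 0.979 in Celsr3_het double-positive nuclei, and the double-negative nuclei held 0.167 to 0.328. There was no overlap, and the difference was 1.76 ± 0.14 (SE, log2; adjusted p = 2.9e-09). In D2-only nuclei the double-positive values were 0.279, 0.298 and 0.365, then 0.273, 0.380 and 0.312, against 0.320 to 0.502. That difference was -0.30 ± 0.11 (SE; adjusted p = 0.0715, higher in 0 of 6 libraries).

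The difference between the receptor classes was tested directly and called 1.51% of 11951 genes (0.828% higher and 0.686% lower). Oprm1 differed by 2.06 ± 0.17 (SE, log2, D1-only minus D2-only; adjusted p = 9.8e-09, positive in 6 of 6 libraries) and Bach2 by 0.48 ± 0.10 (adjusted p = 0.0050). Asic4 differed by -1.32 ± 0.23 (adjusted p = 0.0010, positive in 0 of 6 libraries). None of the 3 tested members did: Epha4 gave -0.33 ± 0.11 (adjusted p = 0.223), Id4 -0.31 ± 0.20 (adjusted p = 0.719) and Lypd1 0.30 ± 0.25 (adjusted p = 0.798). Without the filter on low values the Asic4 and Bach2 calls were lost (adjusted p = 0.0853 and 0.103).

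Partner genes of the members were lower or split. In D1-only double-positive nuclei 4 of 12 were lower and 0 higher, beside 6.7% and 4.55% of all genes tested: the ephrin genes Efna5 (-1.56) and Efnb2 (-0.56), Dkk2 (-0.84) and Chrna7 (-0.55). In D2-only nuclei Efna5 (-1.44), Efnb2 (-0.55) and Chrna7 (-0.67) were lower and Efnb3 (0.43), Ngef (0.22) and Tcf4 (0.35) higher, of 13, beside 7.27% of all genes lower and 4.99% higher. Each of the 3 higher calls was lost in some alternatives: Tcf4 in 4, among them no weighting (0.086, adjusted p = 0.601) and leaving out wild-type library 2 or Celsr3_het library 2, Efnb3 in 3 (without wild-type library 2 or Celsr3_het library 2 or 3, adjusted p up to 0.119) and Ngef in 5 (adjusted p up to 0.0967), among them leaving out wild-type library 3 or Celsr3_het library 2 or 3. The D1-only call of Efnb2 was lost without the filter (adjusted p = 0.059).

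Markers of other cells moved with this selection too. The list of 7 oligodendrocyte markers, none at 0, summed to 4.21 ± 1.08 in D1-only double-positive and 7.66 ± 2.18 in double-negative nuclei, and to 4.71 ± 1.11 and 7.51 ± 2.22 in D2-only nuclei (SD, n = 6). In D1-only double-positive nuclei the sum ran from 3.57 to 4.96 in wild-type and 3.0 to 5.92 in Celsr3_het libraries, and in double-negative nuclei from 7.37 to 10.3 and 4.76 to 9.70. The 9 astrocyte markers, none at 0, summed to 6.95 ± 0.591 in D1-only double-positive and 8.49 ± 0.550 in double-negative nuclei. In D2-only nuclei they summed to 6.03 ± 0.723 and 8.09 ± 0.370 (SD, n = 6). The 8 neuroblast markers went the other way, at 1.76 and 1.41 in D1-only and 1.77 and 1.31 in D2-only nuclei. So did the 12 GABAergic interneuron markers, at 3.79 and 3.33, then 3.83 and 3.28. The Eccentric MSN list of 6 genes, which includes Tshz1, summed to 1.60 and 0.621 in D1-only and 1.58 and 0.406 in D2-only nuclei. These marker sums were not weighted on genes per nucleus, and the part of the markers in the differences was not tested. With gated nuclei of the MSN-like, D1, D2 and Eccentric MSN-like clusters only, the D1-only differences were -1.19 for Epha4, -1.26 for Id4 and 1.04 for Lypd1.

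**Figure D4:**
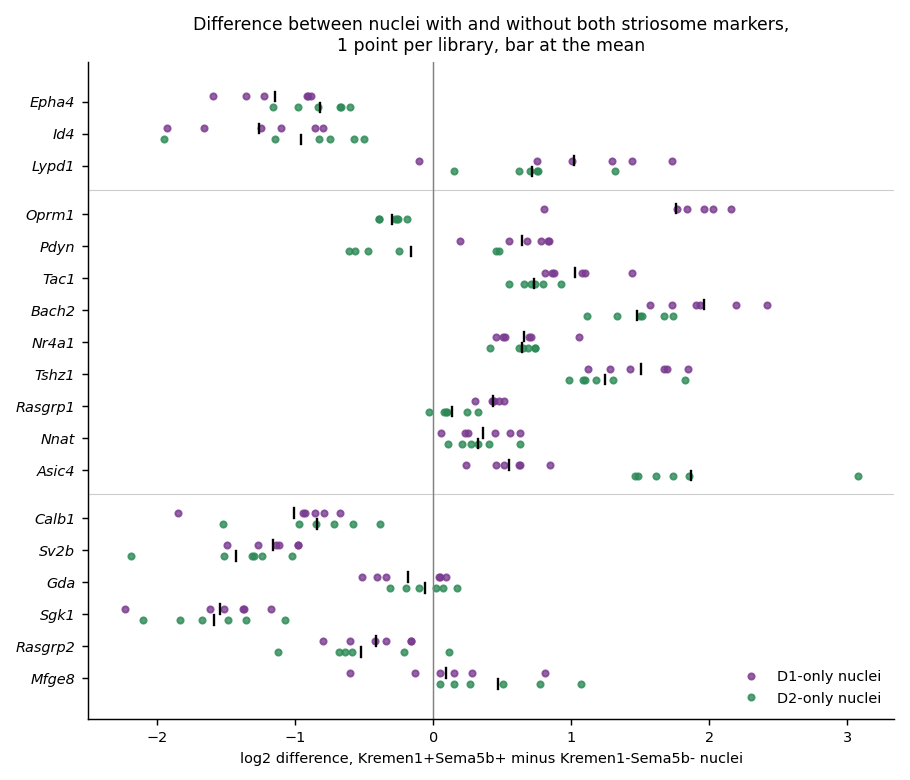
Log2 difference (double-positive minus double-negative, log2(mean + 0.01)) for the 3 tested members, the striosome-associated genes and the matrix genes in D1-only and D2-only nuclei; each point is 1 library. Epha4 and Id4 lie below 0 in every library, and Oprm1 lies above 0 in D1-only and below 0 in D2-only nuclei.

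Between genotypes none of the 5 genes was called in any population tested. The background was as sparse: 0.0143% of 13942 genes in gated nuclei, 0.0156% of 12799 in D1-only and 0.00779% of 12830 in D2-only nuclei, and 0% of 14370 in other nuclei, where 1946 genes had an unadjusted p under 0.05. With replicate numbers as a block, which paired the libraries weakly, the counts were 0 in gated, 1 in D1-only and 2 in D2-only nuclei. Genotype groups that did not overlap were found for 17.4% of genes in gated, 16.1% in D1-only, 15.9% in D2-only and 22.6% in other nuclei, and for 0 of the 5 members in each.

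Kremen1 in gated nuclei differed by 0.08 ± 0.16 (Celsr3_het minus wild type, SE, log2; adjusted p = 0.881) and Sema5b by -0.08 ± 0.14 (adjusted p = 0.875). Epha4 differed by -0.16 ± 0.09 (adjusted p = 0.604) and Lypd1 by -0.17 ± 0.12 (adjusted p = 0.664). Id4 differed by 0.21 ± 0.20 (adjusted p = 0.748), and its highest gated value, 0.406, was in wild-type library 1. The intervals these errors allow do not show that the genotypes were alike.

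In D1-only nuclei Id4 differed by 0.27 ± 0.19 (SE, log2; adjusted p = 0.683), and leaving out wild-type library 1 gave 0.52 ± 0.10 (adjusted p = 0.0495, against 0.0495 to 0.938 over all alternatives). Without that library the D1-only count also went from 2 to 137 genes, and the Id4 call was made in no other setting. Epha4 in D1-only nuclei differed by -0.17 ± 0.09 (adjusted p = 0.60) and in D2-only nuclei by -0.15 ± 0.09 (adjusted p = 0.629). Kremen1 differed between genotypes by 0.01 ± 0.14 in D1-only and 0.04 ± 0.15 in D2-only nuclei, Sema5b by -0.09 ± 0.13 and -0.14 ± 0.16, and Lypd1 by -0.19 ± 0.16 and -0.08 ± 0.15 (SE, log2; adjusted p between 0.745 and 0.991). Over all settings the Sema5b estimate ran from -0.31 to -0.00081 in D1-only and from -0.30 to -0.025 in D2-only nuclei, and it was never called.

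In other nuclei the genotype groups also overlapped. Kremen1 was at 0.0970 ± 0.0159 in wild-type and 0.0941 ± 0.0125 in Celsr3_het libraries (SD, n = 3), Sema5b at 0.246 ± 0.0427 and 0.222 ± 0.0343, and Epha4 at 1.04 ± 0.0191 and 1.04 ± 0.131. Id4 was at 0.301 ± 0.0248 and 0.315 ± 0.0484 and Lypd1 at 0.178 ± 0.0291 and 0.176 ± 0.0433. No member was called for a change with genotype in the difference between D1-only and D2-only nuclei (adjusted p = 0.999 for each), where 0.00767% of 13035 genes were called. Of the 9 striosome-associated, 6 matrix and 16 tested partner genes, 0 were called between genotypes in gated nuclei.

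In gated nuclei with neither receptor gene, where no fit across genes was made, Lypd1 was at 0.247, 0.221 and 0.261 in wild-type and 0.177, 0.195 and 0.209 in Celsr3_het libraries. The groups did not overlap, as for 12% of 13517 genes there, and the exact two-sided permutation test gave p = 0.1, the smallest that 3 against 3 libraries allows. The other 4 members overlapped, with exact p between 0.2 and 1.

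The share of double-positive nuclei did not differ beyond the spread. Among D1-only nuclei it was 6.69%, 8.66% and 7.83% in wild-type and 4.44%, 5.74% and 9.63% in Celsr3_het libraries, a difference of -1.13 percentage points (exact two-sided permutation p = 0.6). Among D2-only nuclei it was 4.86%, 8.14% and 7.69%, then 6.09%, 5.99% and 9.17%, a difference of 0.188 (exact p = 1). The genotype groups overlapped in both classes. The genotype change of the double-positive difference called 0% of 11592 and 0% of 11799 genes by limma, with 508 and 538 at an unadjusted p under 0.05.

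**Figure D5:**
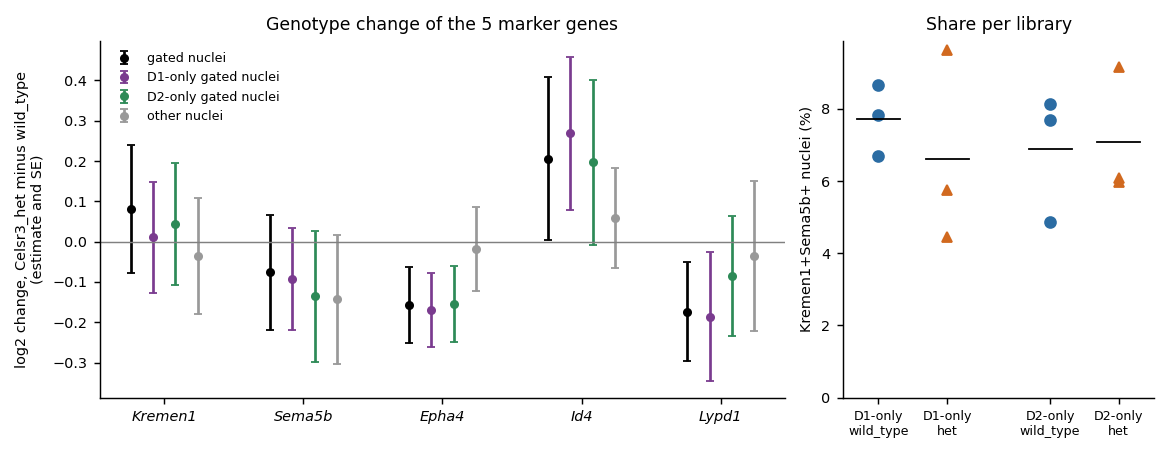
Left, Celsr3_het minus wild-type difference on the log2(mean + 0.01) scale with its SE for each gene in 4 populations; right, percent of D1-only and D2-only nuclei with both Kremen1 and Sema5b, 1 point per library. The estimates for Epha4 lie below 0 in gated, D1-only and D2-only nuclei at -0.16, -0.17 and -0.15, and none was called.

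Genes whose levels followed each member most closely were ranked by Pearson's r over 30 profiles (5 nuclei populations in each of 6 libraries, which share libraries and depth). For Kremen1 they were Lmf1 (0.936), Nab2 (0.923) and Spry2 (0.911). For Sema5b they were Gm49795 (0.930), Art3 (0.929) and Acvr1 (0.926), and for Epha4 Syt6 (0.983), Gm43066 (0.983) and Cnr1 (0.982). For Id4 they were Tmem106b (0.830), Crebrf (0.805) and Hspa4l (0.776), and for Lypd1 Plpp1 (0.797), Samd5 (0.790) and Otof (0.778). No test was made on these values.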

How the data were processed

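Nuclear RNA of 3 wild-type and 3 Celsr3_het striatum libraries was measured. The submitters' processing notes name Cell Ranger, Seurat 4.1 and the mm10/GRCm38 build. The deposited values are whole-number scores per gene and nucleus that had been corrected for depth, as the near-constant totals show. They are therefore not raw counts, so no count model was used. The counting settings, including use of strand, are not given in the sources used here.

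Means per nucleus, library and population were tested as log2(mean + 0.01) with limma 3.58.1 in R 4.3.3 (trended empirical Bayes, Benjamini-Hochberg adjustment over all genes tested), with the library as a block where both sides came from the same libraries. A gene was tested with a mean of at least 0.02 in at least 1 population compared and a summed value averaging at least 30 per library. The double-positive comparison weighted double-negative nuclei to the double-positive distribution of genes per nucleus. Shares were tested by exact permutation over libraries. Clusters were Leiden communities (igraph 0.11.9) at resolution 1.0 from 2000 variable genes, 30 principal components and 15 neighbours: 35 of 48 were named from marker lists, and 13, with 7500 nuclei, stayed unnamed. No doublet caller was run, and the 2% of nuclei with most genes were left out as an alternative. The tests were also run on values drawn around the real means and spread with known fold changes put in, and the outcome is not given here.

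The members and gene lists were chosen with earlier results of these data known. Named are the 5 members, the striosome, matrix, partner and regional lists, and, of other genes, the 5 called in each direction with the largest fold and 1 sign in all libraries for the double-positive comparisons, and up to 3 called between genotypes. The tests of the difference between receptor classes and of its change with genotype, and the settings by cluster, were added after the data were seen. Same-numbered libraries of the 2 genotypes deviated together weakly (correlations of 0.156, 0.137 and 0.105 over 13942 genes). Pairs of unlike number ran from -0.301 to 0.185, the highest being wild-type library 2 with Celsr3_het library 3. The labels do not say that replicate numbers pair mice, so the main genotype fits used no block. Alternatives were the pseudocount, the filter, size-factor scaling, the gate, the receptor split, the weighting, the block and leaving out each library.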

Additional observations from a re-analysis of the deposited data

Results flagged for a closer look

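The double-positive difference itself differed between D1-only and D2-only nuclei for 181 of 11951 genes by limma (1.51%), in a test added after the data were seen. Among them were 3 of 9 striosome-associated and 1 of 13 tested partner genes, and none of the 6 matrix, 4 ventral or medial and 3 dorsolateral genes tested. Oprm1, the mu-opioid receptor gene, differed by 2.06 (log2, D1-only minus D2-only). Over 17 settings, the main one included, the value ran from 1.72 to 2.25 with a limma adjusted p of at most 0.00465. Bach2 differed by 0.48, and its adjusted p reached 0.103 without the filter on low values and 0.0891 with the gate at 5. Asic4 differed by -1.32, with an adjusted p up to 0.0853 without that filter. Tcf4, a basic helix-loop-helix transcription factor gene, differed by -0.64 (adjusted p = 0.0037, positive in 0 of 6 libraries), and its adjusted p ran up to 0.223, at the gate of 5.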

How the results depend on the processing

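Of 14 called member results under 212 alternatives, 211 kept direction and call. The exception was Sema5b in D1-only against D2-only nuclei, 0.02 without the Eccentric MSN-like cluster. The cause of the changes below was not tested. Depth was removed from the values before deposit, so counting error is unknown, and 3 against 3 libraries cannot go below an exact p of 0.1. A requirement of Kremen1 at 2 or more was not run for genes, because some libraries held under 20 such nuclei.

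With size-factor scaling Id4 in gated against other nuclei was -0.046, Kremen1 in D1-only against D2-only -0.051, Kremen1 between genotypes -0.039 in D1-only and -0.0011 in D2-only nuclei, Id4 between genotypes in other nuclei -0.036, and 5 genes were called between genotypes in gated nuclei. The gate at 5 gave Id4 -0.023 in gated against other nuclei. With the replicate block, which pairs libraries by number, 0 genes were called between genotypes in gated, 1 in D1-only and 2 in D2-only nuclei, and 3 for the genotype change between receptor classes, and no member call changed. The D2-only genotype count was 2 without the filter, at the gate of 5 and with the split by the higher receptor gene. The genotype change between receptor classes gave 2 with a pseudocount of 0.1, 0 without the filter or at the gate of 12 (limma; 1227 and 610 at an unadjusted p under 0.05), and 3 without the Eccentric MSN-like cluster, where Kremen1 was 0.0014 and Sema5b -0.15.

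For the receptor-class difference of the double-positive comparison 39 genes were called without the filter. For its genotype change, Epha4 in D1-only nuclei was 0.00056 at the gate of 5 and 0.025 with the split by the higher receptor gene. In D2-only nuclei the count was 2 with a pseudocount of 0.1 and 1 without the nuclei with most genes. There Epha4 was 0.0089 without weighting, and Lypd1 was -0.0012 with gated nuclei of the MSN-like, D1, D2 and Eccentric MSN-like clusters only. The D2-only share difference was -2.73 points for nuclei with Kremen1 or Sema5b.

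Leaving out each library in turn, the genotype counts ran from 0 to 20 in gated, 1 to 137 in D1-only and 0 to 159 in D2-only nuclei, each highest without wild-type library 1. In gated nuclei Id4 against other nuclei ran from -0.015 to 0.10, and between genotypes Kremen1 from -0.084 to 0.21 and Sema5b from -0.24 to 0.042. Kremen1 ran from -0.13 to 0.12 in D1-only and -0.11 to 0.18 in D2-only nuclei, and Lypd1 in D2-only nuclei from -0.19 to 0.039. In other nuclei Kremen1 ran from -0.15 to 0.065, Epha4 from -0.084 to 0.089, Id4 from -0.054 to 0.16 and Lypd1 from -0.21 to 0.11. The genotype change between receptor classes gave 0 to 12 calls, Kremen1 from -0.12 to 0.014, Sema5b from -0.054 to 0.14 and Epha4 from -0.053 to 0.019. The genotype change of the double-positive difference gave 0 to 1 calls in D1-only nuclei, with Epha4 from -0.24 to 0.10, and 0 to 2 in D2-only nuclei, with Epha4 from -0.19 to 0.088, Id4 from -0.57 to 0.16 and Lypd1 from -0.24 to 0.34. The D2-only share difference ran from -0.856 to 0.809 points.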

Other observations

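Other genes separated double-positive from double-negative nuclei by more than the members did, on the log2(mean + 0.01) scale by limma. In D1-only nuclei the largest increases with the same sign in all 6 libraries were in Gm16083 (4.23), C130073E24Rik (2.57), Gm45341 (2.52), Necab1, a calcium-binding protein gene (2.50), and 4930555F03Rik (2.49). Gulp1 was lower by the same rule (-2.35), at 0.246 ± 0.0757 in double-positive and 1.26 ± 0.241 in double-negative nuclei (SD, n = 6). The same rule also named 2600014E21Rik, Postn, B230110G15Rik and G630093K05Rik as lower, but their double-positive means were under 0.02, so they passed the filter on low values only through the double-negative nuclei. The size of their difference depends on the pseudocount of 0.01 and is not given. In D2-only nuclei the largest such increases were in Alk, a receptor tyrosine kinase gene (3.95), Gm16083 (3.42), the serotonin receptor gene Htr7 (3.37), 4930452B06Rik (2.66) and Gpc6 (2.35). Gulp1 was again lower (-2.39), at 0.124 ± 0.0912 against 0.575 ± 0.177, and again passed the filter only through the double-negative nuclei. Malrd1, G630093K05Rik, Hs3st2 and Gm6260 were also named as lower with a double-positive mean under 0.02, and no size is given for them.

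Genes graded along the striatum were split in the double-positive comparison, where 4.55% of all genes were higher and 6.7% lower in D1-only and 4.99% and 7.27% in D2-only nuclei. Of 3 dorsolateral genes tested, the cannabinoid receptor gene Cnr1 was higher (0.59 in D1-only and 0.70 in D2-only nuclei), and Gpr155 (-0.86 and -0.43) and Coch (-0.64 and -0.45) were lower. The D2-only call of Coch was lost without wild-type library 2 or Celsr3_het library 1 (adjusted p = 0.0573 and 0.0719). Of the ventral or medial genes 1 of 4 tested in D1-only and 1 of 3 in D2-only nuclei was called, Crym in both (-1.61 and -0.96).

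Between genotypes, 4 of 5 ventral or medial genes had a positive estimate in gated nuclei, as did 9420 of all 13942 genes tested. Their median was 0.56 beside 0.0579 over all genes, and 0 were called (limma; 3 at an unadjusted p under 0.05). The estimates were 0.95 for Drd3, 0.67 for Dlk1, 0.56 for Cartpt, 0.30 for Crym and -0.28 for Nts. Drd3, a dopamine receptor gene, was at 0.138 ± 0.0409 in Celsr3_het and 0.0650 ± 0.00963 in wild-type libraries (SD, n = 3; limma adjusted p = 0.265). The genes called between genotypes were Mid1 in gated (1.95), D1-only (2.26) and D2-only (2.38) nuclei, A330015K06Rik in D1-only nuclei (-0.60), and Foxp2 for the change between receptor classes (-0.32). Gm15726 was also called, as higher in gated Celsr3_het nuclei. Its wild-type mean was under 0.02, so it passed the filter on low values only through the Celsr3_het libraries. The size of its difference depends on the pseudocount of 0.01 and is not given. In gated nuclei 0 genes were called with the replicate block (limma; 1616 at an unadjusted p under 0.05), or when each Celsr3_het library was left out in turn, so the Mid1 and Gm15726 calls were lost there. Without wild-type library 2, and without wild-type library 3, 1 of the 2 calls was also lost. Of the 2 D1-only calls 1, that of Mid1, was kept with the block and when each library was left out, and A330015K06Rik was lost with the block and without each library other than wild-type library 1. The D2-only call of Mid1 was kept with the block and lost without each of the Celsr3_het libraries. The Foxp2 call was lost without wild-type library 2 or 3 or Celsr3_het library 1 or 2, and without the filter on low values or at the gate of 12.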
